A study of Mus musculus with 2 samples.

Results

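Genes for collagens, laminins, fibronectin and their matrix partners were followed in long-read sequencing of C2C12 cells, a mouse myoblast line. The members were the annotated genes with at least 1 read in either library whose symbol names a collagen or laminin chain, fibronectin (Fn1), a fibrillin, a fibulin, a nidogen, an emilin, elastin (Eln), perlecan (Hspg2) or agrin (Agrn). The rule found 40 members among 14198 annotated genes with reads, and 30 further symbols that it names in the annotation had no read in either library. Replicate 1 held reads of 40 members and replicate 2 of 37.

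The study had 1 group, with no treatment named in the labels, of 2 biological replicates with 1 library each from total RNA. The labels trace the line to injured thigh muscle of C3H mice and give neither the differentiation state of the culture nor the sequencing platform. No condition could therefore be compared, and each test below compares the 2 libraries with each other. Depth was 773408 and 722647 reads on annotated genes.

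The matrix that these genes encode has an interstitial part and a basement membrane. Fibrillar collagens are chains of Gly-X-Y repeats that wind into triple helices, are trimmed outside the cell and assemble into fibrils, while fibronectin is assembled on integrins into fibres that help to place collagen. In basement membranes, which surround every muscle fibre, laminin trimers and a collagen IV network are joined by nidogens and perlecan, and collagen VI microfilaments link this sheet to the tissue around it. Many of these proteins are long and are spliced from many short exons, and fibronectin, fibulins and several collagens are known for alternative exons.

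Markers of myoblasts and early myocytes were read beside those of other cell types. All 7 myoblast and early myocyte markers had reads in both libraries, with a summed level of 3285 ± 349 CPM (reads per 1000000 on annotated genes, mean ± SD, n = 2). Their summed level was 3039 CPM in replicate 1 and 3531 in replicate 2, but 2 of the markers were called different between the libraries. Des, which encodes desmin, was called higher in replicate 2, with 1139 CPM in replicate 1 and 1643 in replicate 2. Myf5 was called higher in replicate 1, by a larger factor, with 278 CPM in replicate 1 and 83.0 in replicate 2. In replicates 1 and 2, Myog had 566 and 628 CPM, Acta1 557 and 617, and Cdh15 204 and 232. Myod1 had 154 and 176 and Mymk 140 and 152. The list mixes markers of myoblasts and of early myocytes, and the differentiation state of the culture was not tested. Of 4 fibroblast markers, Dcn, the decorin gene, had 30 and 23 reads, Pdgfra 1 in each library, Dpt 0 and 2, and Lum was at 0. Their sum was 40.1 and 36.0 CPM. Among 3 endothelial markers there was 1 read of Pecam1, and the 3 Schwann cell markers were at 0. Of 3 chondrocyte markers Sox9, which other cells also use, had 34 and 52 reads, and Acan and Matn1 were at 0. In bulk RNA, fewer cells of a type and less RNA per cell cannot be told apart.

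The members took 1308 reads in replicate 1 and 1314 in replicate 2, which is 0.169% and 0.182% of annotated-gene reads. Their summed level was 1755 ± 89.9 CPM (n = 2). A long read counts once whatever its length, so CPM here counts molecules caught. Where genes are set against each other the ratio of reads is given first, with the ratio per kilobase beside it. For the latter, CPM is divided by the length of the reference transcript, which lowers long transcripts by construction. The reference is the annotated coding transcript with most reads on annotated models, or the longest coding length where reads are equal. Col1a2, Col6a1 and Col5a1 had 0 reads on annotated models. Fn1 had 1, on a retained-intron transcript, so coding length chose the reference of these genes. A few genes carried most of the signal. Col3a1, Col1a2 and Fn1 held 43.7% of the member reads, and the 7 members with at least 100 reads held 65.0%. In mean CPM these 7 stood at 396 for Col3a1, 222 for Col1a2, 149 for Fn1, 106 for Fbln2, 97.0 for Col5a2, 91.1 for Col6a1 and 79.9 for Fbln1. Divided by length, Col3a1 and Col1a2 still led, with 71.1 and 41.5 CPM per kilobase, while Fn1, with 18.0, stood below Fbln2 and Col6a1, with 22.9 and 22.2. Fbln1 came between, with 35.2 on its reference of 2273 bases, but it is also read as a transcript of 3659 bases. The leaders also depended on the class of read, since on complete models alone, defined below, Fbln1 and Fbln2 came next after Col3a1. Another 23 had 10 to 99 reads and 10 had fewer than 10. A member with 0 reads in a library could have reached 3.88 CPM in replicate 1 and 4.15 in replicate 2, which 3 reads would make. Intervals, such limits and p-values cover counting error only.

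**Figure D1:**
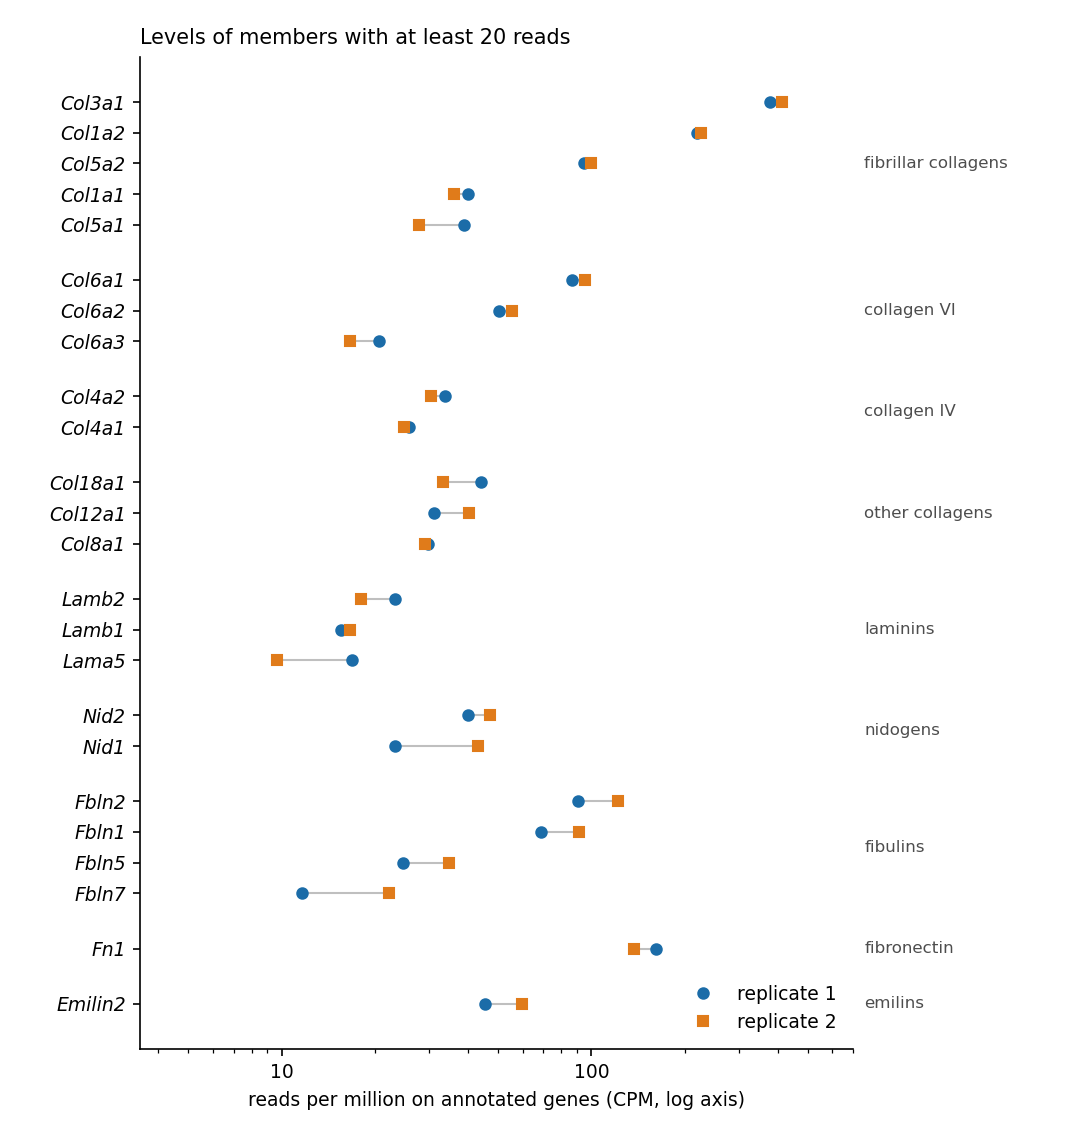
Levels of the 24 members with at least 20 reads, grouped by class, with CPM on a log axis. Circles are replicate 1 and squares replicate 2. Col3a1 lies highest at 378 and 414 CPM, and wide gaps between the libraries are seen for genes with fewer reads, such as Nid1 at 23.3 and 42.9 CPM.

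Fibrillar collagens took the most reads of any class, at 781 and 808 CPM (795 ± 19.2, n = 2), and 6 of their 11 annotated genes had reads. Col3a1 (ENSMUSG00000026043.18; mm10 chromosome 1, 45311538 to 45349706, plus strand), the single chain of collagen III, had 292 and 299 reads, or 378 and 414 CPM. The libraries were close, with a log2 ratio of replicate 2 over replicate 1 of 0.13 and an adjusted p of 0.708 (exact binomial test, Benjamini-Hochberg over 8940 genes). Col1a2 (chromosome 6, 4504814 to 4541544, plus strand), which encodes the second chain of collagen I, had 169 and 163 reads, or 219 and 226 CPM. Its partner Col1a1 had only 31 and 26 reads. The usual collagen I molecule holds more α1 than α2 chains, as background. Col1a2 had 5.45 and 6.27 reads for each read of Col1a1, and 6.04 and 6.95 per kilobase. Both libraries gave the same order, and the order was not kept in every class of read, as shown with the reach of the reads below. Col3a1 had 9.42 and 11.5 reads for each read of Col1a1, and 10.04 and 12.3 per kilobase.

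Collagen V, which sets the width of collagen I and III fibrils, was read mainly through Col5a2. Col5a2 (chromosome 1, 45374321 to 45503282, minus strand) had 73 and 72 reads, 94.4 and 99.6 CPM. Col5a1 had 30 and 20 reads and Col5a3 9 and 4. The ratio of Col5a2 to Col5a1 was 2.43 and 3.6 in reads, and 3.09 and 4.57 per kilobase.

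Collagen VI summed to 163 ± 6.86 CPM over Col6a1, Col6a2 and Col6a3, whose products form a heterotrimer. Col6a1 (chromosome 10, 76708792 to 76726168, minus strand) had 67 and 69 reads, 86.6 and 95.5 CPM. Col6a2 followed with 39 and 40 reads and Col6a3, a far longer transcript, with 16 and 12. Col6a1 had 1.72 and 1.725 reads for each read of Col6a2, and 1.65 and 1.66 per kilobase. For each read of Col6a3 it had 4.19 and 5.75, and 10.3 and 14.2 per kilobase, where the length of Col6a3, 10106 bases, enters. The other collagens were led by Col18a1, the source of endostatin, with 34 and 24 reads. Col12a1, which coats fibrils, had 24 and 29 reads and Col8a1, a network-forming short-chain collagen, 23 and 21.

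Fibronectin and the fibulins came next. Fn1 (chromosome 1, 71585520 to 71653200, minus strand) had 125 and 99 reads, 162 and 137 CPM. Fibulins, glycoproteins of elastic fibres and basement membranes, summed to 195 and 270 CPM, and all 4 annotated genes were read. Fbln2 (chromosome 6, 91212455 to 91272540, plus strand) had 70 and 88 reads, 90.5 and 122 CPM, with a log2 ratio of 0.43 and an adjusted p of 0.411 by the exact binomial test. Fbln1 (chromosome 15, 85205949 to 85286535, plus strand) had 53 and 66 reads, 68.5 and 91.3 CPM. Fbln2 had 1.32 and 1.33 reads for each read of Fbln1. No order per kilobase is given for this pair, since Fbln1 is read as transcripts of 2273 and 3659 bases. Fbln5, needed for elastic fibre assembly, had 19 and 25 reads and Fbln7 9 and 16. The 4 fibulins were each higher in replicate 2, and none of the 4 was called. Eln itself had no read, and of the fibrillins, which scaffold elastin, Fbn1 had 7 and 11 reads and the other annotated gene none. Emilin2, of a family found at the border of elastin and microfibrils, had 35 and 43.

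Basement membrane genes had fewer reads. Laminins summed to 83.6 ± 3.07 CPM, and 8 of 11 annotated genes had reads. Of the β chains, Lamb2 had 18 and 13 reads, Lamb1 12 and 12 and Lamb3 7 and 8. Of the α chains, Lama5 had 13 and 7 reads, Lama2, the α chain of adult muscle laminin, 3 and 1, and Lama4 1 and 0. The γ chain gene Lamc1 had 4 and 10 reads. The exact Poisson 95% intervals of Lamb2 (13.8 to 36.8 CPM in replicate 1 and 9.58 to 30.8 in replicate 2) lay above those of Lama2 (0.80 to 11.3 and 0.035 to 7.71) in both libraries, while those of Lamb2, Lamb1, Lamb3 and Lama5 overlapped. The collagen IV pair, which is transcribed from a shared promoter in opposite directions, had 26 and 22 reads of Col4a2 and 20 and 18 of Col4a1, a ratio of 1.3 and 1.22 in reads and of 1.33 and 1.25 per kilobase. Nidogens, the linkers, had 31 and 34 reads of Nid2 and 18 and 31 of Nid1. The proteoglycan perlecan, from Hspg2, had 8 and 4 reads, of which 8 and 2 lay on single-exon models. Only 2 reads of Hspg2, both in replicate 2, held a junction of its reference transcript. Emilin1, Agrn, Col16a1, Lama2, Col8a2, Col4a5, Col7a1, Col17a1, Col22a1 and Lama4 had fewer than 10 reads over both libraries, and the last 3 only 1 read, in replicate 1.

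No member was called different between the libraries. Of 8940 genes tested, 356 (3.98%) were called at an adjusted p below 0.05 by the exact binomial test, and of the 30 members tested 0 were. At an unadjusted p below 0.05 there was 1 member, Nid1, with 23.3 CPM in replicate 1 and 42.9 in replicate 2, a log2 ratio of 0.87, p = 0.0445 and an adjusted p of 0.335 in the exact binomial test. Under edgeR's TMM scaling and under DESeq2 size factors, 0 members were called and 0 had an unadjusted p below 0.05. Log2 ratios ran from -0.98 for Col5a3 (9 and 4 reads) to 1.32 for Lamc1 (4 and 10 reads). Their median was 0.11, beside 0.06 over all genes tested, with 18 members higher and 12 lower in replicate 2.

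Genes that act with the matrix were read as 3 lists. Of 33 genes for collagen modification, secretion and cross-linking, 31 were read in replicate 1 and in replicate 2, and their sum was 8184 ± 425 CPM. The test took 26 of them. Over all genes tested it called 3.98%, which is the share to set beside the calls in these lists. The highest were Sparc, a collagen-binding glycoprotein, at 2144 ± 59.4 CPM, Pcolce, an enhancer of procollagen C-proteinase, at 1650 ± 142, P4hb, a subunit of prolyl 4-hydroxylase, at 1594 ± 128, and Ppib, a prolyl isomerase, at 561 ± 106. Ppib was called, with 636 CPM in replicate 1 and 486 in replicate 2 (log2 ratio -0.39, adjusted p = 0.00547, exact binomial test). Of 28 matrix receptors, 22 were read in both libraries, at 1897 ± 144 CPM in sum, led by the syndecan gene Sdc4, the integrin β1 gene Itgb1, Sdc2 and Cd44. Sdc4 was the 1 call among 17 tested, with 377 and 237 reads and a log2 ratio of -0.57 (adjusted p = 1.26e-04, exact binomial test). Of 25 remodelling genes, 18 were read in both, at 3449 ± 131 CPM, led by the cathepsins Ctsb and Ctsl, the inhibitor Timp1 and the membrane-bound protease Mmp14. Timp2 was called among 16 tested, with 170 and 98 reads (log2 ratio -0.69, adjusted p = 0.00552, exact binomial test). On complete models alone, described next, the calls of Sdc4, Timp2 and Ppib were lost by the exact binomial test. There the test called 324 of 7436 genes. The log2 ratio of Sdc4 went from -0.57 to -0.12 (adjusted p = 0.946) and that of Timp2 from -0.69 to -0.26 (adjusted p = 0.827). Ppib kept more of its difference, from -0.39 to -0.26 (adjusted p = 0.198). Sparc was called instead (log2 ratio 0.18, adjusted p = 0.0486, exact binomial test).

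Most reads of the members covered only the 3′ part of their transcript. A model is called complete here if the authors' annotation classed it as annotated (Known) or as an unannotated combination of splice sites (NIC) or with new splice sites (NNC), and incomplete if it held part of an annotated intron chain (ISM) or was genomic. Of member reads, 33.8% lay on complete models, 29.97% in replicate 1 and 37.7% in replicate 2, beside 86.1% of all annotated-gene reads (84.0% and 88.3%). ISM models that lack the 5′ part took 49.9% of member reads and 6.28% of all. Spliced ISM models of members covered a median of 30.8% of the annotated length, against 52.7% over all protein-coding genes. A further 364 member reads had a single exon, and 343 of these overlapped a last exon of the gene. Why the reads are short was not tested. Between the libraries, completeness was called different in 201 of 4960 genes (4.05%; Fisher's exact test, Benjamini-Hochberg at 0.05) and in 0 of 16 members tested.

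**Figure D2:**
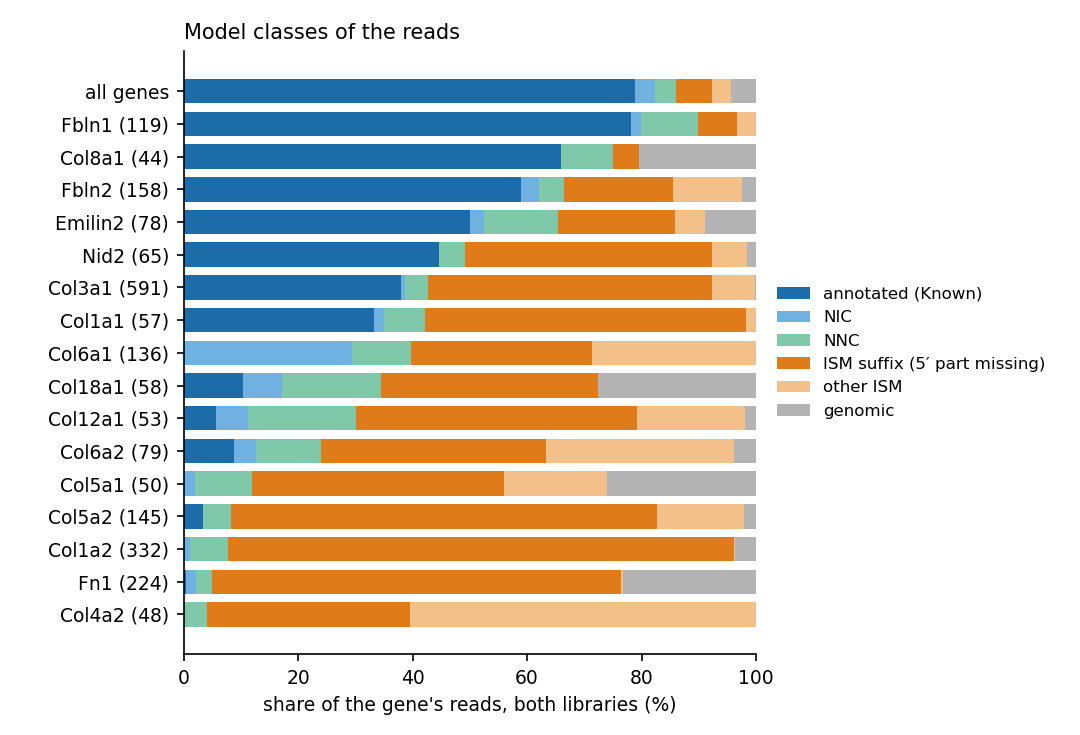
Share of reads in each model class, in percent of the gene's reads over both libraries, for all annotated genes together and for the 16 members with at least 20 reads in each library (reads in brackets). The blue and green parts are complete models. They make up most of Fbln1, Col8a1, Fbln2 and Emilin2 and 4.91% of Fn1.

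Because a complete class does not mean a whole transcript, the reads that reach the exon with the start codon were counted as well. This count does not require the 3′ part, so it does not count whole transcripts either. Col3a1 had 247 such reads and 242 with both its first and its last junction. Col12a1 had 14 such reads and Col4a2 6, and neither had a read with both junctions. Both genes enter the medians by length below. Reads that reach the start-codon exon were 31.8% of member reads, 28.7% in replicate 1 and 34.9% in replicate 2. Of the 30 members with at least 10 reads, 26 had such a read and 4 had none. Members differed widely. Fbln5 reached the start in 93.2% of reads (Wilson 95% interval 81.8 to 97.7, 44 reads), Fbln7 in 92.0% and Fbln1 in 89.9% (83.2 to 94.1, 119 reads). Fbln2 stood at 70.3% (62.7 to 76.8, 158 reads), Nid2 at 52.3% and Col3a1 at 41.8% (37.9 to 45.8, 591 reads). Col5a2 reached it in 11.03%, Col1a2 in 1.81% (0.831 to 3.89, 332 reads), Fn1 in 0.893% (0.245 to 3.20, 224 reads) and Col5a1 in 0 of 50 reads (0 to 7.13). The intervals of Fbln5, Fbln1, Fbln2 and Col3a1 do not overlap those of Col1a2 and Fn1.

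Transcript length was read beside this reach. Among genes with at least 20 reads in each library, those whose longest annotated transcript has 4000 to under 6000 bases reached the start in a median of 86.3% of reads (779 genes), against 40.4% for the 9 members among them. At 6000 bases and longer the median was 81.0% over 260 genes and 11.03% over 5 members. By the spliced length of the reference transcript the medians were 82.8% over 500 genes and 41.1% over 8 members at 4000 to under 6000 bases, and 80.8% over 171 genes and 11.03% over 5 members from 6000 bases, close to those by the longest transcript. By coding length the members lay nearer to all genes in both of these classes. With 4000 to under 6000 coding bases the median was 44.2% over 38 genes and 12.5% over the 7 members among them, and from 6000 coding bases it was 27.4% over 26 genes and 13.7% over 2 members. In the class of 2000 to under 4000 bases the medians were 91.0% over all genes and 75.7% over 2 members by the longest transcript, and 80.4% and, over 7 members, 61.5% by coding length. The medians of members lay below those of all genes in each of these classes, and no test of the distance was made. Single members could lie above, as did Fbln1, with 2055 coding bases and 89.9% against the 80.4% of its coding class. Fbln5 and Fbln7, at 93.2% and 92.0%, lacked 20 reads in each library and are not among these members.

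**Figure D3:**
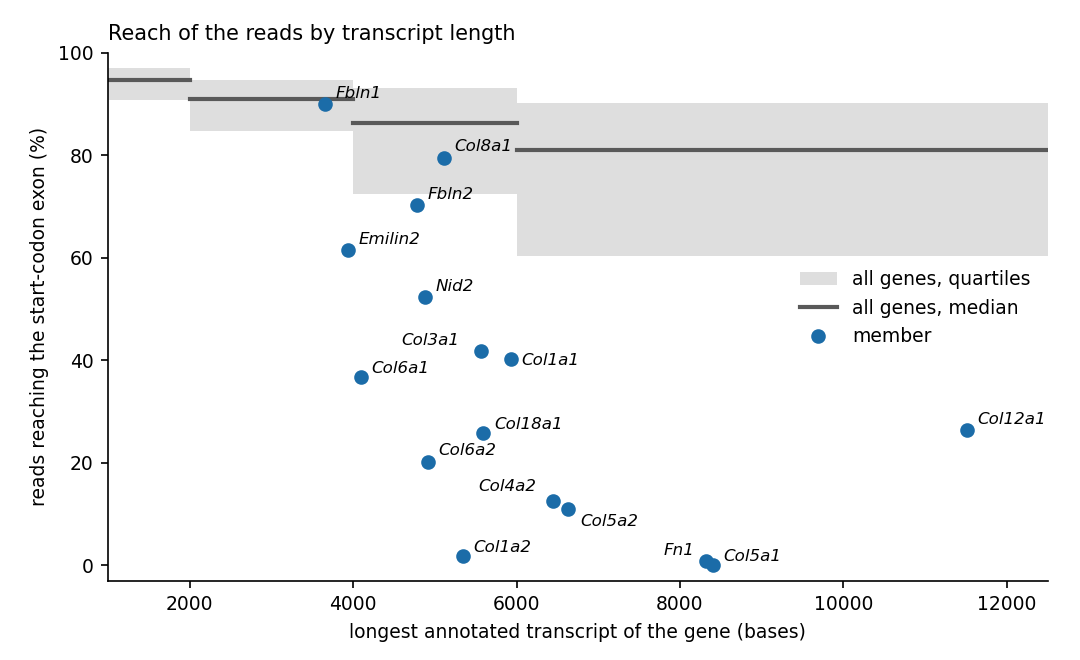
Percent of a gene's reads, over both libraries, that reach the exon with the start codon, against the longest annotated transcript in bases. Points are the 16 members with at least 20 reads in each library; lines and grey bands are the median and quartiles of all genes in 4 length classes. Fbln1 and Col8a1 lie within the grey bands, and Col1a2, Fn1 and Col5a1 lie near 0.

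Col1a1, Col3a1 and Col1a2 have transcripts of like length, 5930, 5564 and 5348 bases, and reads of unlike reach. Col3a1 had 542 reads with its last junction and 246 with its first, 107 and 139 by library. Col1a1 had 55 with the last and 23 with the first. Col1a2 had 316 reads with the last of its 51 junctions, 9 with the fourth and 0 with each of the first 3. These 3 border exons of 11 and 15 bases that 6 and 8 reads passed over by unannotated introns, so the 0 leaves out those reads. Of the Col1a2 reads, 6 reached the start-codon exon. By this count Col1a1, with 23, stood above Col1a2, the reverse of the order by all reads. On complete models the ratio of Col1a2 to Col1a1 was 0.833 and 1.33, against 5.45 and 6.27 on all reads. In Fn1 the counts fell nearer to the 3′ end. Its last junction, 760 spliced bases from that end, had 168 reads, the junction at 1411 bases had 74, and the first, at 7971 bases, had 2, 1 in each library. In Col1a2 the junction at 1457 bases still had 281 of the 316 reads, and junctions at 4869 bases in Col1a2 and 4872 in Fn1 had 9 and 4 reads.

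**Figure D4:**
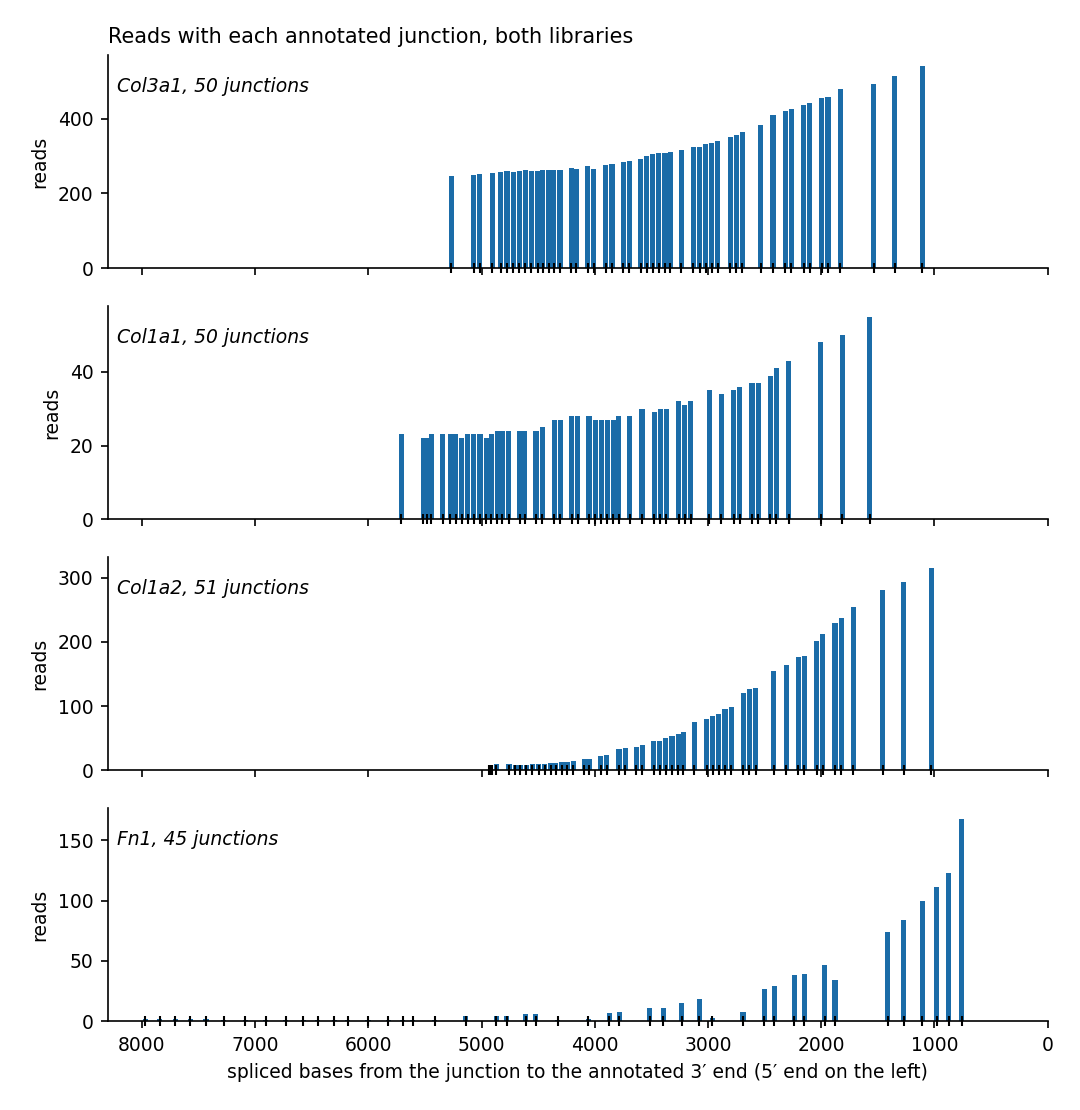
Reads with each annotated junction of Col3a1, Col1a1, Col1a2 and Fn1, summed over both libraries, against the spliced distance to the annotated 3′ end in bases, with the 5′ end on the left. Ticks mark every junction. In Col3a1 and Col1a1 the counts level off towards the 5′ end, at 246 and 23 reads for the first junction, while in Col1a2 and Fn1 they fall to 0 and 2. The first 3 junctions of Col1a2 border short exons that 6 and 8 reads passed over, and those reads are not counted there.

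The alternative exons of fibronectin were read within this limit. Fn1 can include extra domains EDB and EDA, each an entire fibronectin type III repeat on its own exon, and a variable region with sites for α4 integrins. Plasma fibronectin from liver lacks both extra domains, and cells in culture are known to make fibronectin that can carry them. The EDA exon, whose sequence from the GENCODE M21 transcripts is given because its use is counted next, spans chr1:71603660-71603929 on the minus strand, coding, 270 bases in capitals, between 15 bases of each neighbouring exon in lower case.
Fn1 EDA exon: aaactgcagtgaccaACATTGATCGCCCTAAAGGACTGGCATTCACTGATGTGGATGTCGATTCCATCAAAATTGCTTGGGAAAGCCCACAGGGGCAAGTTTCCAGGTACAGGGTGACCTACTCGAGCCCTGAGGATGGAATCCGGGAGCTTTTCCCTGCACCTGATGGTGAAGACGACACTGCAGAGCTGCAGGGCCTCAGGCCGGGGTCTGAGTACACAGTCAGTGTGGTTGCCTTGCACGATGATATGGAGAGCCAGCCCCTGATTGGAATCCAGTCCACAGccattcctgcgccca

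EDA was skipped in most of the few reads that crossed it. The exon was included with both junctions in 2 reads and skipped in 8 in replicate 1, and included in 1 and skipped in 7 in replicate 2. Over both libraries this is 3 of 18 reads, 16.7% (Wilson 95% interval 5.84 to 39.2), and the libraries did not pass Fisher's exact test as different (p = 1). This rule favours skipping, since a read that starts inside the exon shows only the 3′ junction. Counting the 3′ junction alone gave 6 of 14 and 2 of 9 reads, 34.8% together (18.8 to 55.1; Fisher's exact p = 0.400 between libraries). On complete models the exon was included in 0 of 5 reads (0 to 43.4%). EDB (chr1:71613763-71614035, 273 bases), 4056 spliced bases from the 3′ end, was crossed by 6 reads, 1 with and 5 without the exon. That is 16.7%, too few reads to place its inclusion, with an interval of 3.01 to 56.4%. The 3′ junction alone gave 2 of 7 reads, 28.6% (8.22 to 64.1).

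The variable region lies nearer to the 3′ end and was crossed by 50 reads. It is spliced at 3 alternative sites that keep all of its 360 bases, drop the first 75 and keep 285, or drop all of them. The 75 bases, which encode the stretch known to bind integrin α4β1, are shown because they separate the longest form from the middle one (chr1:71597673-71597747, minus strand, coding, capitals).
Fn1 variable region, first part: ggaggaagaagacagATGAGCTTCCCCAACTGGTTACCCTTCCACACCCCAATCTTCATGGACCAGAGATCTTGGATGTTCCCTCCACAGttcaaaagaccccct

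The whole region was kept in 17 of 28 reads in replicate 1 and 17 of 22 in replicate 2, 68.0% together (54.2 to 79.2). A read that starts inside the kept bases is not counted, so this rule favours the shorter forms. The 285-base form had 6 and 2 reads and the form without the region 5 and 3, 16% each (8.34 to 28.5). None of these 3 shares passed Fisher's exact test between the libraries (p = 0.240, 0.439 and 1). Long reads can show both choices on 1 molecule. Of 14 reads that skipped EDA and crossed the variable region, 11 kept all of it, 1 kept 285 bases and 2 kept none, while the 3 reads with EDA were 1 of each.

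Fbln2 has an alternative exon that encodes an EGF-like repeat. It lies at chr6:91259630-91259770 on the plus strand and has 141 coding bases, in capitals.
Fbln2 exon: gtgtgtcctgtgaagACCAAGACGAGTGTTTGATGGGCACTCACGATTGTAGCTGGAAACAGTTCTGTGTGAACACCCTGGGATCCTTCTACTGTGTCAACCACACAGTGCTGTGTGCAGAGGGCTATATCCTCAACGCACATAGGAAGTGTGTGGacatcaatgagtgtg

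This exon was included in 13 reads and skipped in 38 in replicate 1, 25.5% (15.5 to 38.9), and included in 21 and skipped in 48 in replicate 2, 30.4% (20.8 to 42.1). The shorter form prevailed in both libraries, and the difference between them was not called (adjusted p = 1 by Fisher's exact test). The same test over 2531 exons of all genes called 0 (0%). Among 3 member exons with at least 10 informative reads and an inclusion of 5 to 95%, the third, beside those of Fn1 and Fbln2, was a 54-base exon of Col6a2 in 16 of 17 reads. Some annotated exons were never used where reads crossed them, among them 0 of 57 reads for a 99-base exon of Nid2 and 0 of 98 for 101-base and 65-base exons of Fbln2.

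Fbln1 ends in alternative last exons that give the fibulin-1 variants C and D. The junction to the end of Fbln1-202, variant C with 2055 coding bases, had 27 reads in replicate 1 and 43 in replicate 2. The junction to that of Fbln1-201, variant D with 2115 coding bases, had 23 and 21. The share of variant C was 54.0% (40.4 to 67.0) and 67.2% (55.0 to 77.4), and it did not pass Fisher's exact test between libraries (p = 0.177). Over both libraries variant C held 61.4% (52.2 to 69.8) of 114 junction reads. In the isoform test over all genes, 4 of 4011 (0.0997%) were called by Fisher's exact test and 0 of the 5 members tested, which were Col3a1, Fbln1, Fbln2, Col6a1 and Emilin2. Their leading transcripts held 85.5% and 91.5% of complete reads in Col3a1 (Col3a1-201), 65.2% and 61.0% in Fbln2 (Fbln2-202) and 81.0% and 66.7% in Emilin2 (Emilin2-203).

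**Figure D5:**
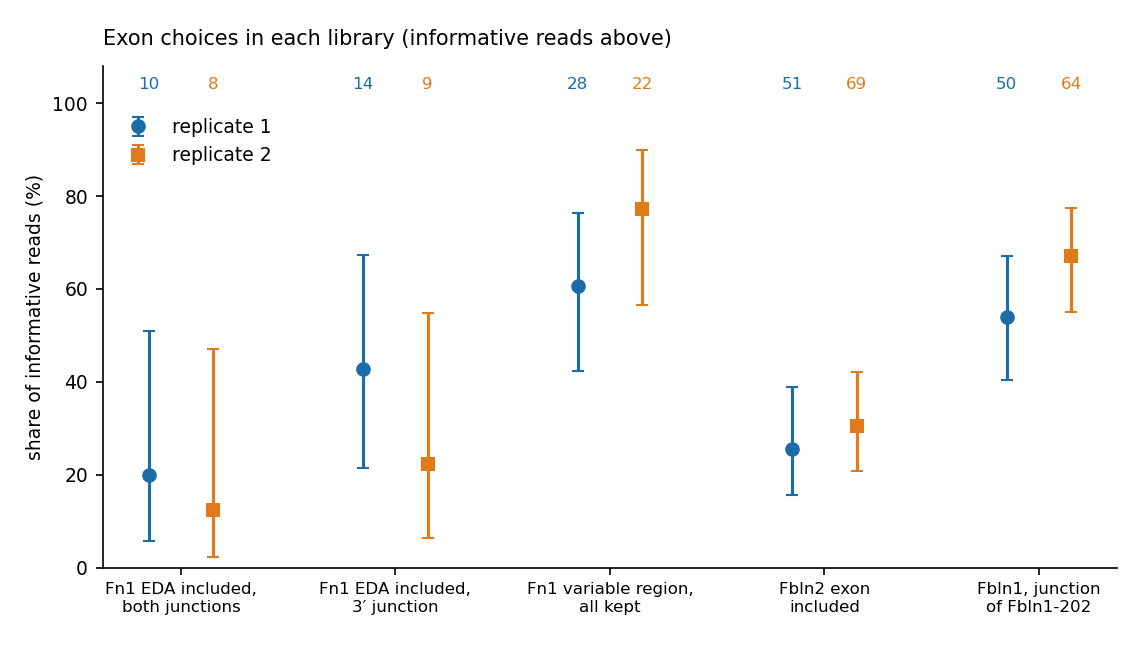
Share of informative reads for 5 exon or end choices in each library, in percent, with Wilson 95% intervals as bars and the number of informative reads above. The bars of the 2 libraries overlap for every choice shown, and EDA moves from 20% and 12.5% to 42.9% and 22.2% when only the 3′ junction is counted.

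First exons were also read. For Col18a1, all 15 reads with an annotated first junction of its 3 full coding transcripts had that of the short form, Col18a1-202 with 3945 coding bases (8 and 7 reads), and the first junctions of Col18a1-203 and Col18a1-201 had 0. Fbln5-201 had its first junction in 19 and 22 reads, and Fbln5-203 in 0. In Col12a1, 14 reads held the first junction of the long transcript and 0 of its reads held both its first and its last. A structure of 3 exons at its 5′ end, not annotated, had 2 and 4 reads.

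Unannotated splicing led in Col6a1. No read of this gene lay on an annotated whole transcript. Its leading model, an unannotated combination with 31 introns against 34 in Col6a1-201, had 16 and 18 reads, 64.0% and 62.1% of complete reads. An unannotated intron from 76712402 to 76713180 had 30 and 45 reads and passed over an annotated exon of 9 bases. Its end at 76713180 had an offset of -4 bases to the annotated site. Another from 76721043 to 76721402 had 21 and 29 reads and passed over a pair of annotated exons of 21 bases, and its end lay 37 bases from the annotated site. In Col1a2, unannotated introns with an end off the annotated site passed over exons of 11 and 15 bases. These short coding exons are shown in capitals, adjoining ones run together, with 15 spliced bases on each side.
Col6a1 exon, chr10:76712865-76712873, minus strand: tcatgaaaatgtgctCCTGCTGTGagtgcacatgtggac
Col6a1 exons, chr10:76721088-76721283, minus strand: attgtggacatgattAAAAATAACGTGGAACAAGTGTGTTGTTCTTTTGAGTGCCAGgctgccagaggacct
Col1a2 exons, chr6:4508335-4508954, plus strand: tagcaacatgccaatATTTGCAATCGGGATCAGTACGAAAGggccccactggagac

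The 9-base exon had both annotated junctions in 0 reads and was passed over in 81, and each of the 21-base exons in 0 and 52. The 11-base and 15-base exons of Col1a2 had 0 reads with both junctions and 6 and 8 that passed over them. A 14-base exon of Col5a2 went the other way, with 12 reads on both its junctions and 2 past it, as did a 21-base exon of Col6a2, with 12 and 5. For 14 internal exons of 25 to 30 bases in 5 members, 325 reads had both junctions and 43 (11.7%) passed over. These exons differed. A 30-base exon of Col6a1 had 95 reads on both junctions and 0 past it. One 27-base exon of Col6a2 had 9 and 9, and another 8 and 9, the 1 exon of the 14 that most reads passed over. For the 4 exons up to 15 bases that reads crossed, 97 of the reads (89.0%) passed over. These counts come from deposited models, and whether the reads hold the bases of these exons was not tested, since read sequences were not used here.

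In all, members had 174 unannotated multi-exon structures with 256 reads, of which 146 had 1 read. Both libraries held 19 of them, from 11 genes, with 90 reads. Beside those of Col6a1 and Col12a1, the most read were one of Fbln1, with 2 and 4 reads, and one of Col1a2 with 49 introns, with 1 and 3. Others came from Col18a1, Col3a1, Col6a2, Emilin2, Lamb3 and Fn1, with 2 or 3 reads each, and further ones from Col1a2, Col6a1 and Fbln1. Of 14 unannotated introns with at least 5 reads, 6 passed over an annotated exon and another 6 had both ends within 5 bases of annotated sites without passing over one.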

How the data were processed

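Long reads came from total RNA of C2C12 cells, in 1 library for each of 2 biological replicates per the labels. The deposited tables give, per the file headers, an unnormalised read count for every transcript model. The deposited annotations give each model's exons on mm10, and per the file headers the annotation was GENCODE M21 with unannotated models from TALON. The aligner is not given in the sources used here. Models, not reads, carry the ends and junctions, so a read's own ends are unknown.

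A gene's count was summed over its models. Depth was 773408 and 722647 annotated-gene reads, of 791850 and 735077 in all. Genes with at least 10 reads entered an exact binomial test (two-sided) of the share of reads in replicate 2, given the depths, with an offset of 0.5 reads in log2 ratios, and completeness (at least 20 reads in each library), isoform use (at least 20 complete reads in each) and exon inclusion by Fisher's exact test, all with Benjamini-Hochberg adjustment at 0.05 over all genes (scipy 1.17.1). These p-values measure 2 libraries only. TMM scaling came from edgeR 4.0.16 and size factors from DESeq2 1.42.0. Shares have Wilson 95% intervals. An exon counted as included with both junctions and as skipped with the junction that joins its neighbours. A read reached the start if its first intron began before the end of the intron after the start-codon exon, whether or not it held the 3′ part. Exon sequences are from GENCODE M21. Tests were tried on simulated data.

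Members, lists and tests were chosen with earlier results of these data known. Full values are given for members with at least 100 reads. Col5a1, Col1a1, other members and the short exons were named after their values were seen. Alternatives covered scaling, read minimums, complete models, junction rules and leaving out a replicate. The values of 1 member and 1 exon choice are not reported here.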

Additional observations from a re-analysis of the deposited data

How the results depend on the processing

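No paired analysis was possible because there is 1 group. The number of members called between libraries was 0 under TMM scaling, DESeq2 size factors, no read minimum, a minimum of 50 reads and complete models alone, while calls over all genes went from 356 (124 higher and 232 lower in replicate 2) to 385 (82 and 303) under TMM and 393 (78 and 315) under DESeq2. Complete models alone lowered the summed member level from 1755 to 689 CPM (of complete reads), with Col3a1 from 396 to 196, Col1a2 from 222 to 20.2, Fn1 from 149 to 8.57, Fbln2 from 106 to 81.6, Col5a2 from 97.0 to 9.33 and Col6a1 from 91.1 to 42.0, while Fbln1 went from 79.9 to 83.2. Fbln1 and Fbln2 were then next after Col3a1, in place of Col1a2 and Fn1. The share of member reads on complete models fell from 33.8% to 24.1% with annotated models alone, and lay between 29.97 and 37.7% with a replicate left out. Genes called for completeness went from 201 to 98 with annotated models alone. EDA inclusion moved from 16.7% to 0% on complete models and to 34.8% by the 3′ junction, a rule added after seeing the data, as were the start-codon reach and the classes by spliced and coding length. EDB inclusion moved from 16.7% to 50% on complete models (1 of 2 reads) and to 28.6% by the 3′ junction and by exon overlap (2 of 7), and lay between 0 and 25% with a replicate left out. Listed member exons went from 3 to 1 with at least 20 informative reads, and structures in both libraries from 19 to 4 with at least 2 reads in each. The collagen biosynthesis list had 2 calls with at least 50 reads (Pcolce added), and the receptor and remodelling lists 0 on complete models. The log2 ratio of Col1a2 turned to -0.0073 under TMM and -0.015 under DESeq2, and that of Fn1 to 1.31 on complete models (11 reads); none of these was called. The cause of these shifts was not tested. With 18 reads across EDA and 6 across EDB, depth limits both.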
